A study of Saccharomyces cerevisiae with 8 samples.

Results

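The data describe what budding yeast cells without PDE2, the gene of the high affinity cAMP phosphodiesterase, transcribe when cAMP is supplied from outside. The comparison takes 3 arrays of Δpde2 cells and 3 arrays of wild type cells, 6 of the 8 arrays of the series, and every gene that 1 or more probe sets of the array are annotated to, which gave 5449 genes. The other 2 arrays are of Δpde2Δtpk3 cells and entered the fit as a group of their own. Both strains compared are haploid cells of mating type a in the BY4741 background, which carries his3Δ1, leu2Δ, met15Δ and ura3Δ. In Δpde2 cells the KanMx cassette stands in place of PDE2, so the marker and the deletion cannot be told apart. The labels of all arrays, wild type included, give YPD medium (yeast extract, peptone and glucose) and 24 h with 4 mM cAMP. The study describes its mutant cultures as grown to the diauxic shift, when glucose runs out and respiration begins. The measurement was by Affymetrix Yeast Genome 2.0 arrays. The methods describe triplicate cultures of the mutants. For the wild type no source says whether the arrays come from separate cultures, so its spread may be partly technical.

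In yeast, glucose raises cAMP through the Ras proteins and adenylate cyclase, and cAMP frees the catalytic subunits of protein kinase A (PKA) from the regulatory subunit Bcy1p. Active PKA is known to favour growth and fermentation, to keep the stress regulators Msn2p and Msn4p out of the nucleus, and to hold back glycogen, trehalose and the entry into stationary phase. Pde1p and Pde2p break cAMP down, and cells without Pde2p are known to be sensitive to cAMP in the medium. The contrast of both strains in the same medium, with cAMP added to both, asks which transcripts differ when PDE2 is lost and PDE1 is kept.

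One wild type array stood apart before any gene was considered. Wild type replicate 1 lay more than 1 log2 unit from the mean of the other 2 wild type arrays for 1150 genes, above it for 515 and below it for 635. The same measure gave 308 genes for wild type replicate 2, 243 for wild type replicate 3 and between 5 and 8 for the Δpde2 arrays. Its 3 prime to 5 prime difference on the SRB4 control probe sets was 2.84 (log2), against 1.05 to 1.92 on the other 7 arrays, while that of ACT1 was 0.19 against 0.22 to 0.38. This difference, a sign of RNA quality, also differed between the strains, but in no common direction. Of 7 control genes the strains did not overlap in this difference for 6. It was larger in wild type for 3, at 1.77 to 2.84 against 1.05 to 1.28 for SRB4, 1.19 to 1.39 against 0.67 to 0.98 for EAF5 and 0.87 to 0.95 against 0.66 to 0.76 for SPT15, and larger in Δpde2 cells for ACT1, RIP1 and WBP1. Its part in the results was not tested. The 4 genes that mark the opposite mating type, α, were a median of 1.75 higher on wild type replicate 1 than on the other wild type arrays. A probe set for a reporter sequence that belongs to no yeast gene was at 7.59 on wild type replicate 1. It was at 4.58 and 4.39 on the other wild type arrays. The source of these signals was not tested. MFA1, the a-factor gene, was at 12.26, 12.04 and 12.12 on the wild type arrays and between 13.05 and 13.39 on the Δpde2 arrays, and these strains are of mating type a. Counts that move by more than 1.5 times when 1 array is left out are given with and without that array. Values are levels on the log2 scale after quantile normalization, changes are log2 fold changes of Δpde2 against wild type with their standard error (SE), and called means an adjusted p under 0.05 in limma, with adjustment over the 5449 genes. Where their gene is deleted, the probe sets of PDE2 and TPK3 read 4.89 to 5.18 and 4.37 to 4.97, so a value near or under 5.18 was not shown to be above background and a change from it is a lower bound.

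**Figure D1:**
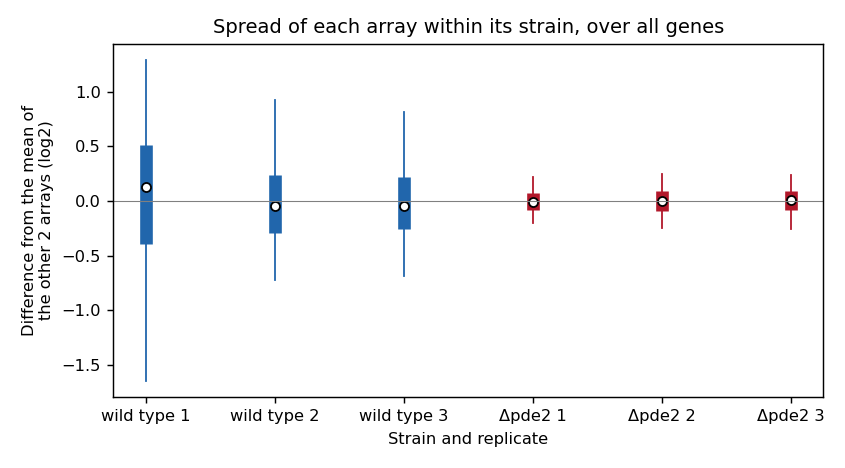
Difference of each array from the mean of the other 2 arrays of its strain (log2, vertical axis) for the 6 arrays (horizontal axis); circles are medians over 5449 genes, thick bars the middle 50 percent and thin lines the 5th to 95th percentile. Wild type replicate 1 spans -1.65 to 1.29, and the Δpde2 arrays stay within -0.26 to 0.25.

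A large part of the transcriptome differed between Δpde2 and wild type cells. Of 5449 genes, 1064 (19.5%) were called higher and 1193 (21.9%) lower in Δpde2 cells, 41.4% in all. The shares of 19.5% and 21.9% are the reference for the counts of every gene list below. The lists and their members were chosen with earlier results of these data known. Their counts, medians and ranks are therefore descriptions and not tests. By at least 2 fold, 379 (6.96%) were higher and 494 (9.07%) lower. At least 4 fold, 62 were higher and 77 lower, and at least 8 fold, 17 and 28. The median change over all genes was 0.03 and the median size of a change 0.50. All 3 Δpde2 arrays lay above all 3 wild type arrays for 1694 genes (31.1%) and below them for 1683 (30.9%). Without wild type replicate 1 the calls rose to 1711 higher (31.4%) and 1602 lower (29.4%), among them 2256 of the 2257 first called, all 2256 in the same direction. Leaving out a Δpde2 array instead left 602 to 667 higher and 790 to 829 lower. With each of the 6 arrays left out in turn, 1308 genes were called every time, 566 higher and 742 lower. The calls were spread over the genome. The median change of the genes of a chromosome ran from -0.14 on chromosome I to 0.09 on chromosome XI. Calls were less frequent among dim genes, with 33.4% of the dimmest 1817 genes, 43.1% of the next 1816 and 47.8% of the brightest 1816.

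**Figure D2:**
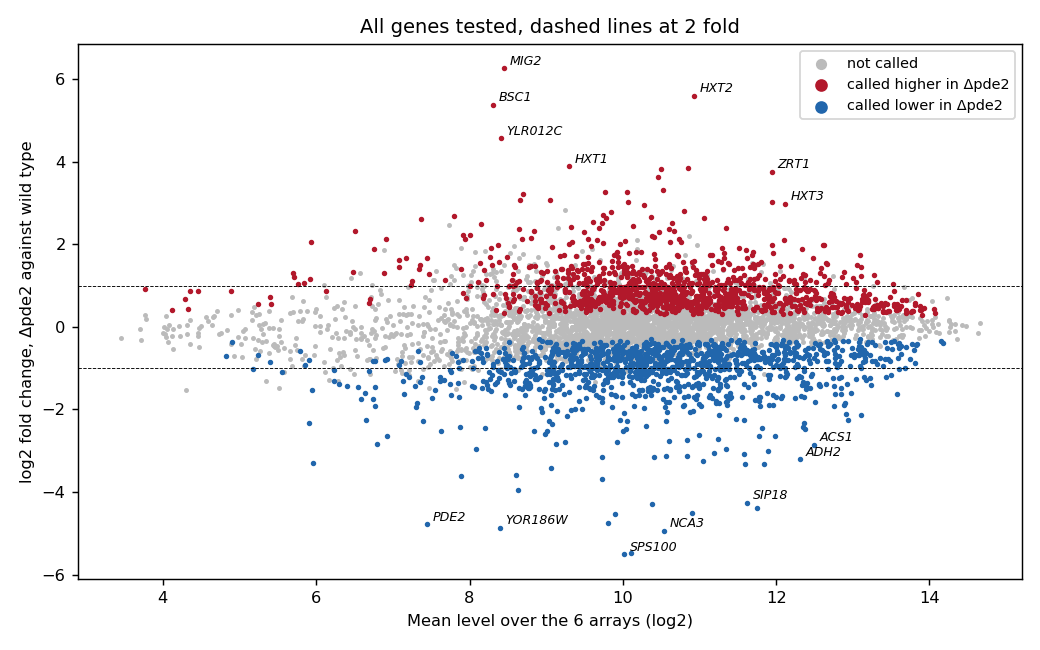
Mean level over the 6 arrays (log2, horizontal axis) against the log2 fold change of Δpde2 against wild type (vertical axis) for each of 5449 genes, with genes called higher in red, called lower in blue and the rest in grey. Calls lie on both sides at every level, from MIG2 at 6.26 to SPS100 at -5.51.

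The genes that fell most included spore wall, mitochondrial and stress genes. SPS100, a spore wall gene, was at 13.05, 12.24 and 13.04 on wild type replicates 1, 2 and 3 and at 6.67, 8.40 and 6.73 on the Δpde2 arrays. Its level fell by 5.51 on the log2 scale (SE 0.48, adjusted p = 0.000391, limma), to 2.19% of wild type. SHH3 and SHH4, paralogues of the membrane anchor genes SDH3 and SDH4 of succinate dehydrogenase, behaved alike. SHH3 was at 12.93, 12.62 and 12.99 in wild type and 6.85, 8.29 and 6.97 in Δpde2 cells. It changed by -5.48 (SE 0.37, adjusted p = 0.000209, limma), and SHH4 by -4.29 (SE 0.32). NCA3, which acts in the expression of mitochondrially encoded ATP synthase subunits, and NDE2, an external NADH dehydrogenase, changed by -4.94 (SE 0.28) and -4.50 (SE 0.25). YOR186W, which has no known function, was at 10.95, 10.35 and 11.17 in wild type and 5.78, 6.20 and 5.92 in Δpde2 cells (-4.86, SE 0.23, adjusted p = 8.81e-05).

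The same set held genes of the plasma membrane and of desiccation. FMP45, an eisosome protein of the plasma membrane, was at 12.66, 11.82 and 12.08 in wild type and 7.50, 7.54 and 7.26 in Δpde2 cells (-4.75, SE 0.22, adjusted p = 8.81e-05, limma). STL1, the proton symporter for glycerol, changed by -4.52 (SE 0.55), and the hydrophilin genes GRE1 and SIP18 by -4.38 (SE 0.26) and -4.27 (SE 0.64). AQY1, an aquaporin of spores, changed by -3.96 (SE 0.41), PMA2, the minor plasma membrane proton pump, by -3.58 (SE 0.48), SNO4 of the Hsp31p family by -3.42 (SE 0.21), CSM4 of meiotic chromosome movement by -3.61 (SE 0.26) and PHM7 by -3.67 (SE 0.28). These 15 genes, PDE2 aside, had the largest decreases among called genes without overlap of arrays. All 15 stayed called with any 1 array left out (adjusted p up to 0.0135). Δpde2 replicate 2 had the highest Δpde2 level for all 15. For SIP18 it was at 11.08 against 8.51 and 8.87, with the lowest wild type array at 13.24. In Δpde2Δtpk3 cells SPS100 was at 7.87 on both arrays and GRE1 at 9.66 and 9.61, near the Δpde2 level, whereas NDE2 was at 11.46 and 10.95 and FMP45 at 9.74 and 9.48, between both other strains.

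**Figure D3:**
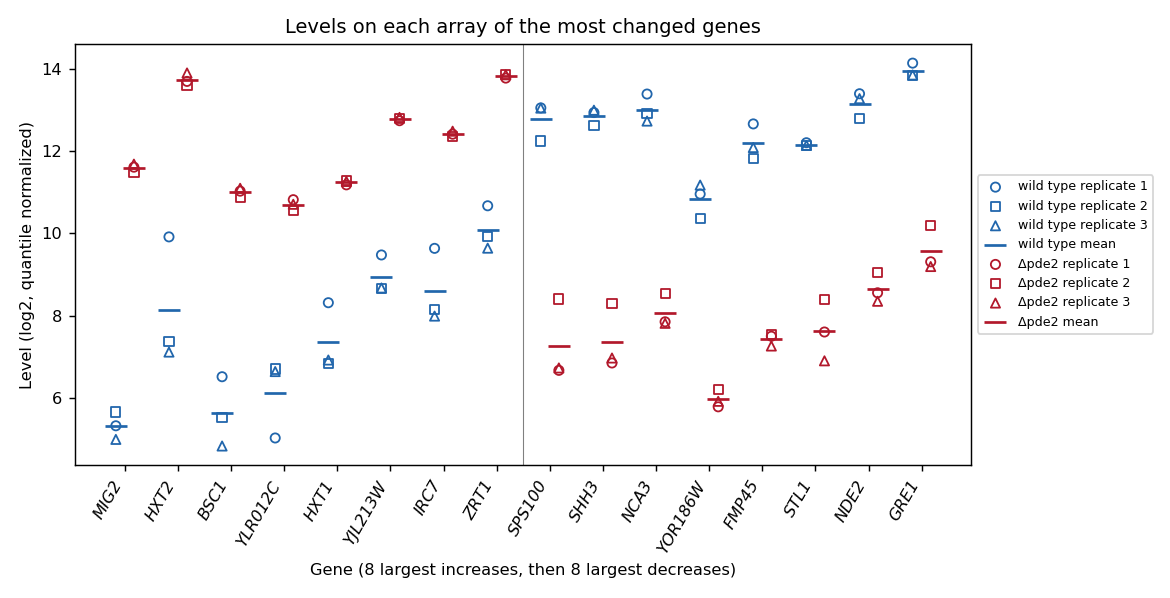
Level on each array (log2, quantile normalized, vertical axis) of the 8 genes with the largest increase and the 8 with the largest decrease (horizontal axis); symbols are replicates, dashes the mean of 3 arrays, wild type in blue and Δpde2 in red. The genes were taken from called genes whose arrays do not overlap between the strains. Wild type replicate 1 is above the other wild type arrays for HXT2, at 9.91 against 7.36 and 7.11.

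The genes that rose most were led by MIG2 and by hexose transporter genes. MIG2, a repressor that glucose itself induces, was at 5.32, 5.66 and 4.99 in wild type and at 11.61, 11.47 and 11.68 in Δpde2 cells. The fitted increase was 6.26 (SE 0.34, adjusted p = 0.000148, limma). All wild type values lie near the level of a deleted gene, and with that level as a floor the increase was at least 73.5 fold. HXT2, a hexose transporter, was at 9.91, 7.36 and 7.11 in wild type and at 13.69, 13.60 and 13.90 in Δpde2 cells (5.60, SE 0.68, adjusted p = 0.00111), and HXT1, the low affinity transporter of glucose rich cells, at 8.31, 6.83 and 6.92 against 11.18, 11.29 and 11.26 (3.89, SE 0.37, adjusted p = 0.000525). In both genes wild type replicate 1 was the wild type array nearest to the mutant. PFK27, which makes the glycolytic activator fructose 2,6-bisphosphate, rose by 3.26 (SE 0.33). BSC1 and PRM7, neighbouring genes on chromosome IV, rose by 5.38 (SE 0.45) and 3.32 (SE 0.29). BSC1 was at 6.51, 5.52 and 4.83 in wild type and 11.02, 10.88 and 11.09 in Δpde2 cells. Wild type replicate 3 was under the level of deleted PDE2, and against that floor the increase was at least 5.26.

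Among the other large increases were enzymes and transporters of diverse roles. IRC7, a cysteine desulphydrase, was at 9.63, 8.14 and 7.99 in wild type and 12.41, 12.36 and 12.48 in Δpde2 cells (3.83, SE 0.41, adjusted p = 0.000692, limma). ZRT1, the high affinity zinc transporter, was at 10.67, 9.91 and 9.64 against 13.77, 13.86 and 13.85 (3.76, SE 0.25, adjusted p = 0.000209). UTR2, a chitin transglycosylase of the cell wall, rose by 3.63 (SE 0.43), ARI1, an NADPH dependent aldehyde reductase, by 3.26 (SE 0.39), IMD2, an IMP dehydrogenase of GTP synthesis, by 3.21 (SE 0.52) and AAC3, the ADP/ATP carrier of hypoxic cells, by 3.07 (SE 0.32). YLR012C, YJL213W and IRC4, for which no function is given here, rose by 4.57 (SE 0.46), 3.84 (SE 0.22) and 3.08 (SE 0.32). YLR012C was at the level of deleted PDE2 on wild type replicate 1, and against that floor its increase was at least 4.52. All 15 stayed called with any 1 array left out (adjusted p up to 0.0170). Wild type replicate 1 was the highest wild type array for 12 of the 15 increases, and also for 12 of the 15 decreases. The increases of YLR012C and IRC4 were instead smaller without it, at 4.02 and 2.74.

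Of 17 measured genes of the cAMP pathway itself, 3 were called higher and 6 lower, the deleted PDE2 among them, beside 19.5% and 21.9% of all genes. PDE2 was at 9.13, 10.73 and 9.66 in wild type and between 4.92 and 5.18 on the Δpde2 arrays, from which the gene is deleted. PDE1, the low affinity phosphodiesterase, was at 11.57, 11.69 and 11.94 in wild type and 12.96, 12.78 and 12.99 in Δpde2 cells. RAS2 was at 11.67, 11.88 and 12.07 against 12.91, 12.76 and 12.87, an increase of 0.98 (SE 0.13, adjusted p = 0.0014, limma). GPA2, the Gα protein of the glucose receptor, rose by 0.49 (SE 0.11), a call lost without Δpde2 replicate 3 (adjusted p = 0.0513). Others were lower. CYR1, adenylate cyclase, was at 11.00, 10.97 and 11.18 in wild type and 10.05, 9.66 and 9.52 in Δpde2 cells (-1.31, SE 0.17, adjusted p = 0.00141). CDC25, the exchange factor of Ras, changed by -0.98 (SE 0.12, adjusted p = 0.00103). IRA1, a GTPase activator that switches Ras off, was at 12.13, 12.29 and 12.36 against 10.66, 10.55 and 10.41 (-1.72, SE 0.13, adjusted p = 0.000257).

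Of the remaining pathway genes, BCY1 changed by -0.79 (SE 0.13) and GPB2, a kelch partner of Gpa2p, by -0.58 (SE 0.13), the latter not called without Δpde2 replicate 1 (adjusted p = 0.0572). The other 8 did not pass. Their values were -0.81 for RAS1 (adjusted p = 0.0543), 0.09 for SRV2, -0.33 for the receptor gene GPR1, 0.79 for RGS2, -0.21 for GPB1, 0.11 for TPK2, -0.03 for TPK3 and -0.75 for IRA2 (adjusted p = 0.125, limma). IRA2, the second Ras GTPase activator, was at 11.42 on wild type replicate 1, 12.71 and 12.74 on the other wild type arrays and between 11.42 and 11.74 on the Δpde2 arrays. Without wild type replicate 1 it changed by -1.18 and was called (adjusted p = 0.000302), as was GPR1 (-0.59, adjusted p = 0.0153). RGS2 was called only without wild type replicate 2, at 1.21 (adjusted p = 0.00763).

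Among 15 kinases and transcription factors that act beside or against PKA, 3 were called higher and 6 lower, beside 19.5% and 21.9% of all genes. MSN4, one of both paralogous stress activators, was at 10.59, 11.09 and 10.57 in wild type and 12.07, 12.09 and 12.26 in Δpde2 cells (1.39, SE 0.19, adjusted p = 0.00156, limma). MSN2, the other, changed by -0.61 (SE 0.18, adjusted p = 0.0333), so that the paralogues moved in opposite directions, although MSN2 was no longer called without wild type replicate 2 or any 1 Δpde2 array (adjusted p up to 0.107). CRF1, a corepressor of ribosomal protein genes, was at 9.23, 7.39 and 8.03 against 5.15, 5.69 and 5.29 (-2.84, SE 0.44, adjusted p = 0.00274). Its Δpde2 values lie near the level of the deleted PDE2 (up to 5.18), and against that floor the decrease was at least 7.11 fold. GIS1, which activates genes after the diauxic shift, changed by -1.16 (SE 0.15) and YAK1, a kinase of growth arrest, by -0.59 (SE 0.10). IGO1, which protects transcripts in quiescence, rose by 0.95 (SE 0.21). SOK2, a repressor in the PKA pathway, had 0.58 (SE 0.15), a call lost without wild type replicate 3 or Δpde2 replicate 1 or 3. SCH9 had -0.62 (SE 0.16), lost without Δpde2 replicate 2 or 3. RPH1 had -0.60 (SE 0.15), lost without Δpde2 replicate 1 or 2 (adjusted p for these 3 genes up to 0.0849, limma). The kinase RIM15 (-0.51, adjusted p = 0.0515), SNF1 (-0.34), IGO2 (0.39), SKO1 (0.33), HSF1 (-0.34) and PHD1 (0.26) did not pass. The 6 lower calls became 3 without Δpde2 replicate 2. RIM15, SNF1 and SKO1 were called without wild type replicate 1, IGO2 without wild type replicate 3 and RIM15 also without wild type replicate 2.

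Genes for growth on ethanol and acetate fell together. Of 20 genes of the glyoxylate cycle, gluconeogenesis and ethanol use, 17 were called lower, 14 of them by at least 2 fold, and none higher, with a median change of -1.55 beside 0.03 over all genes and 21.9% of all genes called lower. ADH2, the alcohol dehydrogenase that consumes ethanol, was at 14.01, 13.80 and 13.95 in wild type and 10.42, 11.48 and 10.25 in Δpde2 cells (-3.20, SE 0.31, adjusted p = 0.000529, limma). ACS1, acetyl-CoA synthetase, was at 14.20, 13.66 and 13.90 against 10.82, 11.47 and 10.92 (-2.85, SE 0.25). SFC1, the succinate fumarate carrier, was at 13.18, 13.57 and 13.84 against 11.29, 11.29 and 11.03 (-2.32, SE 0.23). The strains were separated in all 3. With ICL1 (-2.10), MLS1 (-2.13) and FBP1 (-2.25), chosen after their values were seen, the decrease covered the glyoxylate shunt and the last regulated step of gluconeogenesis. With 1 array left out, 16 or 17 of the 20 were called lower, and DAL7, a malate synthase paralogue chosen after its values were seen, was called higher without wild type replicate 1.

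Of 46 genes of β-oxidation and the peroxisome 28 were called lower and 2 higher (median -0.78). POX1, the first enzyme of the pathway, was at 11.32, 9.83 and 10.47 in wild type and 7.56, 8.22 and 7.36 in Δpde2 cells (-2.83, SE 0.40, adjusted p = 0.00181, limma). CTA1, peroxisomal catalase, changed by -2.61 (SE 0.41) and CRC1, the mitochondrial carnitine carrier, by -2.23 (SE 0.24). FAA1, an acyl-CoA synthetase that also serves growing cells, rose by 0.72 (SE 0.11). PEX25, a peroxin, had 0.47 (SE 0.14), and its call was lost without wild type replicate 3 or any 1 Δpde2 array, which leaves 1 gene called higher for the latter. The 28 lower calls ran from 21 to 32 with single arrays left out.

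Of 9 genes of NADH dehydrogenases and complex II, 7 were called lower (median -0.82), led after NDE2 by SDH2 (-1.40, SE 0.12) and SDH1 (-0.99, SE 0.14). SDH2, the iron-sulphur subunit, was at 13.91, 13.91 and 13.98 in wild type and 12.45, 12.74 and 12.41 in Δpde2 cells. The exception was SDH5, an assembly factor, at 0.46 (SE 0.13), which was called only with all 6 arrays or without wild type replicate 1. Of 16 genes of complex III and cytochrome c 6 were lower (median -0.29) and none higher, among them CBP4 (-1.41, SE 0.11), CYT1 (-1.22, SE 0.16) and CYT2 (-1.20, SE 0.13). Of 34 genes of complex IV and its assembly 19 were lower (median -0.60), including SCO1 (-1.30, SE 0.14), COX4 (-1.25, SE 0.16) and COX10 (-1.34, SE 0.32), the last not called without Δpde2 replicate 1 or 3 (adjusted p up to 0.0547, limma). Of 22 genes of ATP synthase 13 were lower (median -0.44), with INH1, its inhibitor, at -1.24 (SE 0.16) and NCA2 at -1.11 (SE 0.21) after NCA3. These lists were also shifted on wild type replicate 1, by a median of -0.37 for complex III and -0.17 for ATP synthase. Without that array the lower calls were 10 of 16 for complex III and 20 of 22 for ATP synthase, and 3 genes of complex IV in place of 1 were called higher. Without Δpde2 replicate 1 or 3, 7 of the 22 genes of ATP synthase were lower.

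Of 16 genes of the TCA cycle 11 were called lower and none higher (median -0.59). CIT3, a mitochondrial citrate synthase, was at 12.12, 11.25 and 11.73 in wild type and 9.28, 9.42 and 9.57 in Δpde2 cells (-2.28, SE 0.29, adjusted p = 0.00123, limma). KGD1 of 2-oxoglutarate dehydrogenase changed by -1.51 (SE 0.14) and ACO1, aconitase, by -1.16 (SE 0.12). With 1 array left out, 8 to 12 genes of the cycle were lower. Around the mitochondrion, 12 of 34 genes of mitochondrial biogenesis and distribution were lower and 4 higher (median -0.37), led by MDM36 (-2.03, SE 0.17) and NUM1 (-1.59, SE 0.19), which tether mitochondria to the cell cortex, and OM14 of the outer membrane (-1.60, SE 0.12). PUF3, which binds transcripts of mitochondrial proteins, was higher (1.31, SE 0.20). The lower count of this list was 21 without wild type replicate 1, and the higher count was 2 without Δpde2 replicate 2 or 3. Genes of mitochondrial translation had no such direction. Of 76 mitochondrial ribosomal protein genes 10 were higher and 16 lower (median 0.05), and 18 and 26 without wild type replicate 1. Without Δpde2 replicates 1, 2 and 3 the lower calls were 8, 10 and 8 and the higher calls 4 each. RSM10 (1.09, SE 0.24) and RTC6 (-1.46, SE 0.11) marked the extremes among those called with every array left out in turn.

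Of 7 trehalose genes 5 were called lower (median -0.97), with ATH1, the acid trehalase, at -1.52 (SE 0.19) and TPS2, a synthase subunit, at -0.99 (SE 0.12). Of 22 glycogen genes 13 were lower and 3 higher (median -0.66). GAC1, the phosphatase subunit that activates glycogen synthase, was at 11.58, 11.30 and 11.07 in wild type and 8.69, 8.31 and 8.62 in Δpde2 cells (-2.78, SE 0.19, adjusted p = 0.000209, limma). SGA1, a sporulation glucoamylase, changed by -2.29 (SE 0.25) and GLG2, glycogenin, by -1.74 (SE 0.17). PSK2, a kinase that restrains glycogen synthase, rose from 8.77, 9.48 and 9.55 to 10.54, 10.44 and 10.63 (1.27, SE 0.24, adjusted p = 0.00613). It was the only glycogen gene called higher without any 1 Δpde2 array, and 5 were higher without wild type replicate 1.

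Of 43 targets of Msn2p and Msn4p 27 were called lower and 4 higher (median -0.70), and 26 to 30 were lower with any 1 array left out. GND2, a 6-phosphogluconate dehydrogenase, was at 12.92, 12.48 and 12.61 in wild type and 9.45, 9.45 and 9.38 in Δpde2 cells (-3.24, SE 0.14, adjusted p = 8.27e-05, limma). XBP1, a repressor of cell cycle genes, was at 11.75, 11.04 and 11.13 against 8.14, 8.12 and 8.20 (-3.15, SE 0.19), and RTN2, a reticulon, changed by -2.95 (SE 0.14). CTT1, cytosolic catalase and a classical readout of PKA, was at 13.09, 12.99 and 13.01 against 10.61, 10.52 and 10.63 (-2.44, SE 0.11, adjusted p = 8.81e-05). The arrays of each strain lay close together for CTT1. SSA4, a cytosolic Hsp70 on the same list, went the other way, from 12.93, 12.66 and 12.73 to 13.88, 13.84 and 13.84 (1.08, SE 0.12, adjusted p = 0.000796). SSA4 alone of the 4 was called higher without any 1 Δpde2 array. There were 2 such genes without wild type replicate 2 or 3.

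Of 40 chaperone genes 10 were called higher and 8 lower (median 0.18), near the 19.5% and 21.9% of all genes. SSA2 of the Hsp70 family was at 12.01, 11.83 and 11.07 in wild type and 13.71, 13.66 and 13.48 in Δpde2 cells (1.98, SE 0.25, adjusted p = 0.00123, limma). SSA3, its paralogue of post-diauxic cells, changed by -1.44 (SE 0.14), HSP31 by -1.32 (SE 0.10) and HSP12, a membrane stabilising protein, by -1.62 (SE 0.26). HSP12 was at 14.29, 14.40 and 14.48 in wild type and at 12.51, 13.40 and 12.40 in Δpde2 cells. The 8 lower calls became 5 with any 1 array other than wild type replicate 1 left out. Of 38 antioxidant genes 16 were lower and 5 higher (median -0.33). GTT1, a glutathione transferase, changed by -1.47 (SE 0.12), while TRR1, thioredoxin reductase, and GPX2, a glutathione peroxidase, rose by 1.02 (SE 0.11) and 1.06 (SE 0.15). With wild type replicate 1 left out the higher calls were 10.

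The list of stationary phase genes had the second lowest median of the 53 lists, a rank that depends on how the members were chosen. Of 36, 23 were called lower, 19 of them by at least 2 fold, and 2 higher (median -1.02). The decreases were led by FMP45, GRE1 and SIP18. The genes called higher were SNZ1 of vitamin B6 synthesis (1.26, SE 0.19) and RGI1 (0.41, SE 0.09), the latter not called without Δpde2 replicate 1 or 3 (adjusted p up to 0.0574, limma). Of 19 genes of eisosomes and membrane stress 10 were lower and 1 higher (median -0.34), with YRO2, a membrane protein of the Hsp30p family, at 12.99, 13.13 and 13.21 in wild type and 9.88, 10.53 and 9.72 in Δpde2 cells (-3.07, SE 0.23). Of 35 autophagy genes 15 were lower and 2 higher (median -0.26). The largest decreases there were in receptor genes, ATG34 (-2.04, SE 0.15) of the Cvt pathway and ATG39 (-1.90, SE 0.26) and ATG40 (-1.65, SE 0.16) of nuclear and endoplasmic reticulum autophagy. The higher calls of this list were 6 without wild type replicate 1, 1 without wild type replicate 2 and 0 without any 1 Δpde2 array. Of 13 vacuolar hydrolases and inhibitors 8 were lower, or 5 without any 1 Δpde2 array, and 2 higher, with PAI3, an inhibitor of proteinase A, at -1.89 (SE 0.24) and the carboxypeptidase CPS1 at 2.09 (SE 0.21).

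Of 128 ribosomal protein genes 82 were called higher and none lower, and 123 of 128 had a positive change, against 19.5% of all genes called higher. The changes were small, with a median of 0.47 and 5 genes at 2 fold or more. RPS22A was at 11.78, 11.41 and 11.16 in wild type and 12.94, 12.99 and 12.86 in Δpde2 cells (1.48, SE 0.17, adjusted p = 0.000859, limma), and RPS26B changed by 1.13 (SE 0.15). RPL39 had a larger value, 1.89 (SE 0.63, adjusted p = 0.0466), which rested on wild type replicate 1. It was at 9.75 there, against 12.36 and 12.07 on the other wild type arrays and 13.24 to 13.36 in Δpde2 cells. Without that array it changed by 1.07 and stayed called, and it was not called without wild type replicate 3 or any 1 Δpde2 array (adjusted p up to 0.119). The 82 calls became 106 without wild type replicate 1, 67 without wild type replicate 2, 50 without wild type replicate 3 and 40, 42 and 49 without Δpde2 replicates 1, 2 and 3. The median without wild type replicate 1 was 0.50. Most yeast ribosomal proteins are encoded by near identical gene pairs, whose probe sets may share signal, so a value of 1 member of a pair is uncertain.

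Of 20 cytosolic tRNA synthetase genes 12 were called higher and none lower (median 0.59), and all 20 had a positive change. KRS1, for lysine, was at 10.88, 11.39 and 10.73 in wild type and 12.55, 12.63 and 12.41 in Δpde2 cells (1.53, SE 0.19, adjusted p = 0.0011, limma). ILS1, for isoleucine, and WRS1, for tryptophan, rose by 1.13 (SE 0.15) and 1.09 (SE 0.14). Without wild type replicate 3 or Δpde2 replicate 1 or 2, 7 genes were called. Of 38 translation factors 13 were higher and 4 lower (median 0.37). DED1, a helicase of initiation, rose by 1.01 (SE 0.17), while its paralogue DBP1 changed by -1.03 (SE 0.12), and HEF3, the alternative elongation factor 3, by -1.69 (SE 0.14). The higher calls were 7, 7 and 8 without Δpde2 replicates 1, 2 and 3, and the lower calls 2 without wild type replicate 3 or any 1 Δpde2 array.

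Of 146 ribosome biogenesis genes, 19 (13.0%) were called higher and 4 (2.74%) lower, with a median of 0.43. Both shares are under the 19.5% and 21.9% of all genes. On wild type replicate 1 the list lay a median of 0.72 below the other wild type arrays, and without that array its median was 0.11, with 29 genes higher and 8 lower. The higher calls were 37 without wild type replicate 2 and 6 without any 1 Δpde2 array. The lower calls were 2 without wild type replicate 2 and 1 without Δpde2 replicate 1 or 3. SRP40, a nucleolar chaperone, held in every case, from 9.51, 9.74 and 8.99 in wild type to 11.87, 11.76 and 11.75 in Δpde2 cells (2.38, SE 0.21, adjusted p = 0.000404, limma). ESF1 was at 6.76 on wild type replicate 1, 9.41 and 8.87 on the others and 10.58 to 11.06 in Δpde2 cells (2.54, SE 0.62). Its change was 1.74 without wild type replicate 1, and it was not called without Δpde2 replicate 1 or 3 (adjusted p up to 0.0583). The proteasome list shifted likewise, with a median of 0.36, or 0.12 without wild type replicate 1, on which it lay 0.44 lower. Of its 34 genes 5 (14.7%) were higher and 1 (2.94%) lower, also under the shares of all genes. The higher calls became 12 without wild type replicate 1 and 2, 1 and 1 without Δpde2 replicates 1, 2 and 3. Of 41 genes of RNA polymerases I and III 7 (17.1%) were higher and 5 (12.2%) lower (median 0.30), beside 19.5% and 21.9% of all genes. Without any 1 Δpde2 array 3 were higher, and without wild type replicate 3 or Δpde2 replicate 1 or 3, 3 were lower. BDP1 (1.76, SE 0.39) and TFC4 (-0.93, SE 0.11), of the machinery for tRNA genes, were called throughout.

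**Figure D4:**
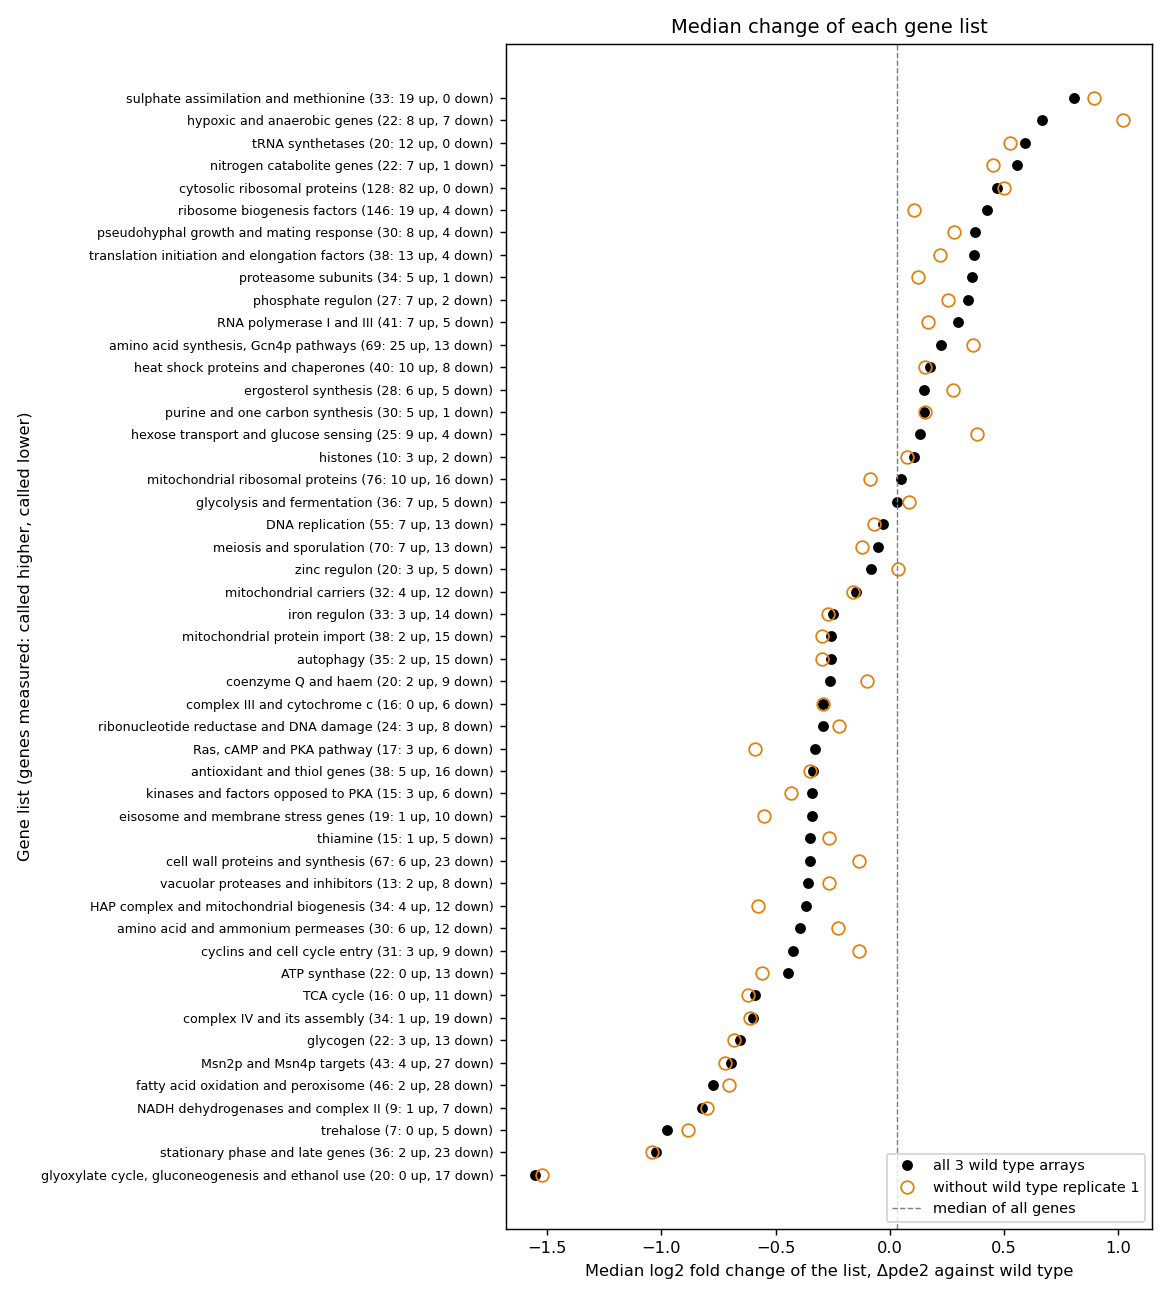
Median log2 fold change of Δpde2 against wild type (horizontal axis) for 49 gene lists (vertical axis, with genes measured, called higher and called lower), with all wild type arrays (black) and without wild type replicate 1 (open orange); the dashed line is the median of all genes, 0.03. The lists run from -1.55 for the glyoxylate cycle and gluconeogenesis to 0.81 for sulphate assimilation, and ribosome biogenesis moves from 0.43 to 0.11.

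Sulphur metabolism had the highest median of the 53 lists with all arrays, and the hypoxic genes had the highest without wild type replicate 1. Of 33 genes of sulphate assimilation and methionine synthesis 19 were called higher, 12 of them by at least 2 fold, and none lower (median 0.81, or 0.89 without wild type replicate 1). CYS3, which makes cysteine from cystathionine, was at 10.36, 9.40 and 8.41 in wild type and 12.16, 12.14 and 12.30 in Δpde2 cells (2.81, SE 0.43, adjusted p = 0.00259, limma). MET32, a zinc finger activator of the pathway, was at 5.14, 6.54 and 6.49 against 8.69, 8.37 and 8.97 (2.62, SE 0.39, or at least 2.61 with wild type replicate 1 at the level of deleted PDE2). SAM1, S-adenosylmethionine synthetase, was at 9.94, 9.36 and 8.63 against 11.62, 11.41 and 11.46 (2.18, SE 0.44). With 1 array left out, 14 to 25 of the 33 were called higher.

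Of 69 amino acid biosynthesis genes 25 were called higher and 13 lower (median 0.22). ARO7, chorismate mutase, was at 9.25, 9.04 and 8.81 in wild type and 10.71, 10.90 and 10.76 in Δpde2 cells (1.76, SE 0.14, adjusted p = 0.000269, limma), and LYS1 and SER2 rose by 1.74 (SE 0.26) and 1.69 (SE 0.24). Among the genes that fell, ARG3 of arginine synthesis fell by 2.00 (SE 0.20), ARG1 of the same pathway changed by -1.81 (SE 0.13) and GDH3, a glutamate dehydrogenase, by -1.84 (SE 0.12). The lower calls were 8 without Δpde2 replicate 2 or 3. Of 22 genes subject to nitrogen catabolite repression 7 were higher and 1 lower (median 0.56). DAL5, the allantoate permease, was at 9.60, 9.35 and 9.20 against 11.96, 12.02 and 11.74 (2.52, SE 0.14, adjusted p = 0.000148). DAL80, a GATA repressor, and CAR1, arginase, rose by 2.00 (SE 0.33) and 1.26 (SE 0.15). When wild type replicate 1 was left out, 17 of the 22 were higher and 2 lower, and without Δpde2 replicate 1 or 3, 4 were higher.

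Of 30 permease genes for amino acids and ammonium 12 were called lower and 6 higher (median -0.39). PUT4, the proline permease, was at 13.63, 13.12 and 13.44 in wild type and 10.38, 10.43 and 10.35 in Δpde2 cells (-3.01, SE 0.29, adjusted p = 0.000525, limma). The ammonium permeases diverged. MEP2 was at 11.97, 12.13 and 11.60 against 13.47, 13.40 and 13.37 (1.51, SE 0.21, adjusted p = 0.00179), while MEP1 changed by -1.70 (SE 0.36, adjusted p = 0.00887). There were 2, 3 and 2 higher calls without Δpde2 replicates 1, 2 and 3.

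Of 25 genes of hexose transport and glucose sensing 9 were called higher and 4 lower (median 0.13). HXT5, the transporter of slowly growing cells, was at 13.31, 13.16 and 13.31 in wild type and 9.88, 10.37 and 9.55 in Δpde2 cells (-3.33, SE 0.26, adjusted p = 0.000269, limma). HXT3 and HXT4, chosen after their values were seen, rose by 2.97 (SE 0.40) and 1.49 (SE 0.28) beside HXT1 and HXT2. The glucose sensor gene SNF3 changed by -1.56 (SE 0.15) and RGT1, the repressor of hexose transporter genes, by -1.43 (SE 0.14). The list lay a median of 0.90 higher on wild type replicate 1 than on the other wild type arrays, and without that array 12 genes were higher and 5 lower.

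Of 35 measured members of isoenzyme pairs, 8 (22.9%) were called higher and 14 (40.0%) lower, beside 19.5% and 21.9% of all genes. Of the ADP/ATP carriers, AAC3 rose by 3.07, AAC1 changed by -1.73 (SE 0.12) and PET9, the major form, by -0.43 (SE 0.10). For PET9 the call was lost without Δpde2 replicate 1 or 3 (adjusted p up to 0.0734, limma). COX5B, the hypoxic form of a complex IV subunit, was at 11.53, 10.99 and 11.33 in wild type and 12.25, 12.17 and 12.36 in Δpde2 cells (0.98, SE 0.15), and COX5A, the aerobic form, at 13.86, 13.89 and 13.87 against 12.93, 13.00 and 12.83 (-0.95, SE 0.10). Both forms were therefore separated between the strains, in opposite directions. CYC1, cytochrome c, changed by -0.97 (SE 0.16), and its hypoxic form CYC7 had 0.50 and did not pass (adjusted p = 0.155). ANB1, the hypoxic form of translation factor eIF5A, was at 9.96, 8.10 and 8.35 against 11.71, 11.90 and 11.66 (2.95, SE 0.46, adjusted p = 0.00281), and HYP2, the aerobic form, had -0.36 (SE 0.10), a call lost without wild type replicate 3 or any 1 Δpde2 array. The near identity of ANB1 and HYP2 may let their probe sets share signal, which was not tested. HXK2, the hexokinase of glucose growth, rose by 1.51 (SE 0.22), and HXK1 had 0.38, not called with any array but wild type replicate 1 left out. Among genes of large change whose partner did not pass, ADH2 stood beside ADH1 (0.01) and CIT3 beside CIT1 (-0.27) and CIT2 (-0.03). The higher calls of the list were 5 with any array other than wild type replicate 1 left out.

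**Figure D5:**
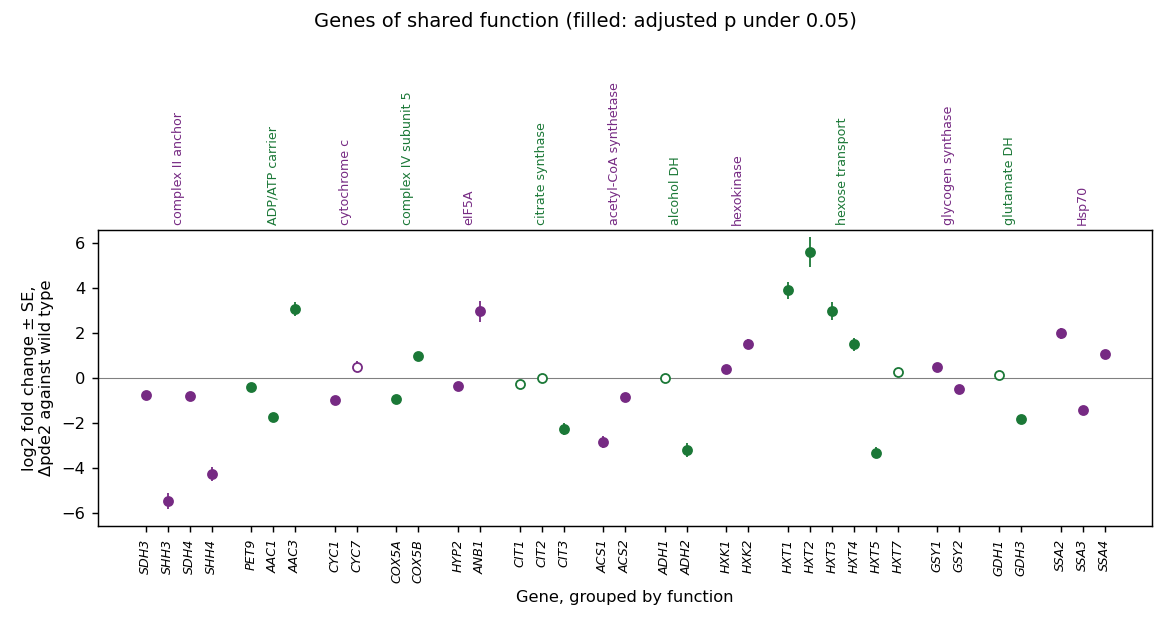
Log2 fold change of Δpde2 against wild type (vertical axis) for genes that share a function (horizontal axis), with bars of 1 SE and n = 3 arrays of each strain; filled symbols passed at an adjusted p under 0.05. AAC3 (3.07) lies opposite AAC1 (-1.73), ANB1 (2.95) opposite HYP2 (-0.36) and HXT1 (3.89) opposite HXT5 (-3.33).

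Glycolysis and fermentation had no common direction, with 7 of 36 called higher and 5 lower (median 0.03). GPM3, a phosphoglycerate mutase homologue, was at 8.85, 8.42 and 8.23 in wild type and 10.77, 10.90 and 10.98 in Δpde2 cells (2.38, SE 0.18, adjusted p = 0.000259, limma). The aldehyde dehydrogenases ALD3 and ALD6 changed by -1.99 (SE 0.26) and -1.01 (SE 0.10), and PDC6, the minor pyruvate decarboxylase, by -1.66 (SE 0.38). Leaving out wild type replicate 1 gave 11 higher calls, and leaving out any other array gave 4.

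Of 22 hypoxic genes 8 were called higher, 7 of them by at least 2 fold, and 7 lower (median 0.67). TIR3 and TIR1, cell wall mannoproteins of anaerobic cells, rose by 2.42 (SE 0.49) and 2.14 (SE 0.45), and HEM13, an oxygen regulated enzyme of haem synthesis, by 1.10 (SE 0.16). TIR1 was at 10.75, 9.12 and 9.10 in wild type and 11.76, 11.77 and 11.86 in Δpde2 cells. DAN4, another anaerobic mannoprotein, was at 10.50, 9.60 and 9.65 against 8.03, 7.84 and 7.95 (-1.97, SE 0.24, adjusted p = 0.00111, limma), and the sterol importers PDR11 and AUS1 changed by -1.59 (SE 0.20) and -1.50 (SE 0.39), the latter not called without any 1 Δpde2 array (adjusted p up to 0.068). The list lay 0.76 higher on wild type replicate 1, and without it 14 genes were higher (median 1.02).

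Of 67 cell wall genes 23 were called lower and 6 higher (median -0.35). CWP1, a major mannoprotein, was at 13.17, 13.01 and 13.10 in wild type and 10.50, 10.55 and 10.34 in Δpde2 cells (-2.63, SE 0.18, adjusted p = 0.000216, limma), and WSC4, a sensor of the secretory pathway, changed by -2.05 (SE 0.37). Higher calls were 13 without wild type replicate 1. Of 33 iron regulated genes 14 were lower and 3 higher (median -0.25), with the metal transporters SMF2 (-1.78, SE 0.15) and SMF1 (-1.64, SE 0.20) lowest and the regulator AFT2 highest (1.20, SE 0.14). The lower calls of the iron list were 8, 8 and 7 without Δpde2 replicates 1, 2 and 3, its higher calls 1 in those cases and 7 without wild type replicate 1. Of 20 zinc regulated genes 3 were higher and 5 lower (median -0.08). ZAP1, the zinc responsive activator, rose with its target ZRT1, from 8.91, 8.88 and 9.10 to 11.00, 11.05 and 10.84 (2.00, SE 0.12, adjusted p = 0.00015), and IZH1 changed by -1.47 (SE 0.31). The higher calls of the zinc list were 6 without wild type replicate 1, and the lower calls 3 without wild type replicate 3 and 1, 2 and 2 without Δpde2 replicates 1, 2 and 3. Of 27 phosphate regulated genes 7 were higher, or 13 without wild type replicate 1, and 2 lower (median 0.35), with the acid phosphatase PHO11 at 1.74 (SE 0.29) and the transporter PHO87 at -1.05 (SE 0.16).

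HUG1, an inhibitor of ribonucleotide reductase, was at 9.43, 8.23 and 7.69 in wild type and 11.10, 11.34 and 11.25 in Δpde2 cells (2.78, SE 0.41, adjusted p = 0.00215, limma), and DIF1, which regulates where the enzyme resides, was at 10.18, 9.30 and 9.07 against 11.86, 11.86 and 11.78 (2.32, SE 0.27, adjusted p = 0.000955). RNR1, its large subunit, changed by -1.53 (SE 0.35), a call lost without Δpde2 replicate 3 (adjusted p = 0.0507). Of 24 genes of ribonucleotide reductase and DNA damage 3 were higher and 8 lower. Of 55 replication genes 13 (23.6%) were lower and 7 (12.7%) higher (median -0.03), beside 21.9% and 19.5% of all genes, so the list as a whole had no excess of note. Its largest called decreases were in polymerase subunit genes, POL1 at -1.21 (SE 0.11), POL2 at -1.48 (SE 0.23) and POL3 at -1.14 (SE 0.16). Leaving out wild type replicate 1 gave 16 higher replication genes. Without wild type replicate 3 and Δpde2 replicates 1, 2 and 3 the higher calls were 4, 4, 3 and 3, and without Δpde2 replicate 1 or 3 the lower calls were 8. Of 70 meiotic genes 13 were lower and 7 higher (median -0.05, but 0.33 with median centring and 0.38 with the values as deposited), with SPO19 at -2.33 (SE 0.23) after SPS100 and NDJ1 at 2.33 (SE 0.22). SPO19 was at or under the level of deleted PDE2 on all 3 Δpde2 arrays, a decrease of at least 3.72 fold, and NDJ1 on wild type replicate 3, an increase of at least 4.71 fold. The meiotic calls were 24 lower and 14 higher without wild type replicate 1. The lower calls were 8 without Δpde2 replicate 2 or 3 and the higher calls 3 without Δpde2 replicate 1 or 3.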

How the data were processed

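The authors deposited log2 probe set signals of Affymetrix Yeast Genome 2.0 arrays, 1 array a sample. RNA isolation, quality control in dChip and statistics in limma are described in the methods, while the summarisation and normalization of the deposited values are not given in the sources used here. Of 5814 probe sets, 5498 were annotated to 1 gene, and where a gene had more than 1 probe set (47 genes) the brightest on average stood for it. Values of all 8 arrays were quantile normalized (quartiles differed between arrays) and fitted in limma 3.58.1 (R 4.3.3) with 3 groups, lmFit and eBayes, and p-values were adjusted by Benjamini-Hochberg over 5449 genes. The fit was tested on simulated data in which a gene had the same spread on every array. On the real arrays the residuals had standard deviations of 0.60, 0.34 and 0.31 for wild type replicates 1, 2 and 3. They were 0.10 to 0.11 for the Δpde2 arrays, and the simulation did not cover this inequality. The text names the 15 largest increases and decreases among called genes whose arrays do not overlap, up to 3 called members of each list in each direction, the PKA lists and the isoenzymes. Members and the 53 lists were chosen with earlier results of these data known. Alternatives were median centring, values as deposited, no dim genes, mean of probe sets, only 6 arrays, array weights, a replicate block, robust moderation with a trend, a stricter threshold and leaving out arrays. The number of arrays limits the precision. Promoter sequences were not used here.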

Additional observations from a re-analysis of the deposited data

Results flagged for a closer look

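Signal differed between the strains on 2 probe sets outside the gene comparison. The 5.8S rRNA control probe set was at 8.35, 8.83 and 9.72 on the wild type arrays and at 13.27, 13.15 and 13.22 on the Δpde2 arrays, a log2 difference of 4.25 (SE 0.32, adjusted p = 0.000263, limma). In Δpde2Δtpk3 cells it was at 9.82 and 9.90, near the wild type. One probe set for a reporter sequence, which belongs to no yeast gene, was at 7.59, 4.58 and 4.39 on the wild type arrays and at 13.86, 13.80 and 13.83 on the Δpde2 arrays, a log2 difference of 8.31 (SE 0.78, adjusted p = 0.000498). In Δpde2Δtpk3 cells, which also carry KanMx, it was at 13.83 and 13.98. Its wild type replicate 1 value was the highest of the wild type arrays. Among the other 46 reporter probe sets none was called higher and 2 were called lower at an adjusted p under 0.05 (limma), with log2 differences from -1.08 to 0.52. The source of either signal was not tested.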

How the results depend on the processing

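Of 5449 genes, 1064 were called higher and 1193 lower. Array weights, which gave wild type replicate 1 a weight of 0.05, raised these to 2027 and 1874. Without wild type replicate 1 and with the other arrays normalized again, 1714 were higher. At an adjusted p under 0.01, 527 were higher and 702 lower. With single arrays left out, 602 (without Δpde2 replicate 3) to 1711 (without wild type replicate 1) were higher and 790 to 1602 lower, and of the genes at least 2 fold changed 283 to 458 were higher and 422 to 598 lower. With the third of genes of lowest mean level left out, which left 3632 genes, 306 in place of 494 were at least 2 fold lower. The other alternatives kept all 4 counts within 1.5 times. With the replicate block, 877 were higher and 1010 lower. Deviations of same-numbered arrays of both strains were hardly correlated (-0.09, -0.03 and 0.01). With 3 arrays a strain, this cannot show whether arrays were processed in pairs, and no source says so. Of 194 called genes named in the text, 177 were called under every alternative that tested them at the same threshold and none changed sign. The 17 others, each given above with the array concerned, lost the call with an array left out. Some of them also lost it otherwise. With median centring these were HXK1, RGI1, RPL39 and SDH5, and with the values as deposited HXK1, MSN2 and RPL39. With only 6 arrays they were HXK1 and RPL39, and with the replicate block HXK1, HYP2, MSN2, PEX25, RPH1 and RPL39. Genes not called that changed sign were TPK3, at 0.15 with median centring, 0.20 as deposited and -0.12 to 0.016 with single arrays left out, ADH1, at -0.034 with median centring, and CIT2, at -0.055 to 0.017 with single arrays left out. No list median of 0.3 or more in size changed sign. The list of α mating type markers had no gene left without the dim genes.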

Other observations

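Mitochondrial carriers changed singly. Of 32 carrier genes 4 were called higher and 12 lower (median -0.15), and 11 were higher without wild type replicate 1. YMC2, an inner membrane carrier, was at 9.66, 8.49 and 8.59 in wild type and 11.29, 11.37 and 11.41 in Δpde2 cells (2.45, SE 0.30, adjusted p = 0.00111, limma), and OAC1, the oxaloacetate carrier, was at 10.23, 10.46 and 10.31 against 12.20, 12.26 and 12.29 (1.92, SE 0.10, adjusted p = 0.000148). The strains did not overlap for either gene. Of 38 genes of mitochondrial protein import 15 were lower and 2 higher (median -0.26), but the lower calls were 9 without wild type replicate 3 and 6, 5 and 5 without Δpde2 replicates 1, 2 and 3, and the higher calls 5 without wild type replicate 1 and 1 without Δpde2 replicate 1 or 3. MAS2, a subunit of the processing peptidase, and ERV1, of disulphide relay import, were called throughout at 0.56 (SE 0.11) and -0.84 (SE 0.17). Of 20 genes of coenzyme Q and haem synthesis 9 were lower and 2 higher (median -0.26), with CAT5 of coenzyme Q synthesis at -1.29 (SE 0.14) and HEM2 at -0.88 (SE 0.12). Without wild type replicate 1 the higher calls were 4, and without Δpde2 replicate 2 there was 1.

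Of 30 genes of pseudohyphal growth and the mating response 8 were called higher and 4 lower (median 0.37). PRM5, a pheromone regulated gene, was at 10.92, 10.91 and 11.01 in wild type and 12.84, 12.89 and 13.09 in Δpde2 cells (1.99, SE 0.13, adjusted p = 0.000209, limma), and FUS1, of cell fusion, changed by 1.31 (SE 0.28). With wild type replicate 1 left out 14 were higher, and the lower calls were 2 without wild type replicate 2 and 0 with wild type replicate 3 or any 1 Δpde2 array left out. Of 31 cell cycle genes 9 were lower and 3 higher (median -0.42, or -0.13 without wild type replicate 1), with the G1 cyclin CLN1 at -1.40 (SE 0.26), FAR1, an inhibitor of G1 cyclins, at -1.01 (SE 0.21) and the cyclin CLB4 at 0.74 (SE 0.10). Leaving out wild type replicate 1 gave 6 higher calls, and there was 1 with wild type replicate 3 or any 1 Δpde2 array left out. Of 10 histone genes 3 were higher and 2 lower. HHT1, of histone H3, was at 12.23, 13.02 and 12.83 against 13.60, 13.52 and 13.68 (0.91, SE 0.20), and HHO1, the linker histone, changed by -0.78 (SE 0.15). Without Δpde2 replicate 1 or 3 the histone calls were 1 in each direction.

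Of 30 genes of purine and one carbon metabolism 5 were called higher and 1 lower (median 0.15). IMD4, which shares its reaction with IMD2, was at 10.95, 11.05 and 10.37 in wild type and 12.46, 12.50 and 12.39 in Δpde2 cells (1.66, SE 0.20, adjusted p = 0.000995, limma), and ADE3 changed by 1.23 (SE 0.17). In the absence of wild type replicate 1, 8 were higher and 2 lower, and the lower calls were 0 without any 1 Δpde2 array. Of 28 ergosterol genes 6 were higher and 5 lower (median 0.15), with ERG6 at 0.88 (SE 0.16), ERG12 at 0.83 (SE 0.10) and HMG2 at -0.95 (SE 0.21). The higher calls were 14 without wild type replicate 1 and 3 without Δpde2 replicate 1 or 3, and the lower calls 2, 3 and 1 without Δpde2 replicates 1, 2 and 3. Of 15 thiamine genes 5 were lower and 1 higher (median -0.35). The list lay 0.70 higher on wild type replicate 1, the lower calls were 3 without wild type replicate 3 and 0 without any 1 Δpde2 array, and the higher calls 2 without wild type replicate 1. The call that held throughout was that of THI80, thiamine pyrophosphokinase, at 1.35 (SE 0.17).

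Of 218 probe sets without a gene name, controls and reporters aside, 36 were called higher and 61 lower. That is 44.5% in all, near the 41.4% of all genes.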
